A study of Mus musculus and Homo sapiens with 22 samples.

Results

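Nuclear-only transcripts are those listed in both the chromatin and the nucleoplasm file of living cells and in neither cytoplasm file of the same cell line. The cells were HEK293, a human embryonic kidney line, and V6.5 mouse embryonic stem cells (mES). Transcripts were chosen by their listing alone, for each cell line separately. In HEK293 216 transcripts met the rule, which was 7.95% of the 2716 listed in chromatin and nucleoplasm in vivo (95% exact interval 6.96 to 9.03). In mES 2215 of 8533 met it, or 26.0% (25.03 to 26.9). The 2431 nuclear-only transcripts were part of 43971 transcripts listed in any of the 12 icSHAPE files used. Each was set beside transcripts listed in chromatin, nucleoplasm and cytoplasm in vivo, of which there were 1991 in HEK293 and 6283 in mES.

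icSHAPE reads RNA structure with NAI-N3, a reagent that acylates the 2′-hydroxyl of flexible nucleotides. A high score thus marks a reactive and usually unpaired base. A score of 0 is the lowest on the scale, and the read depth behind it is unknown. For the in vivo files living cells were treated for 5 min at 37 °C and then split into chromatin, nucleoplasm and cytoplasm. For the in vitro files RNA was taken from each fraction, denatured, refolded and then treated. No genotype or drug differed between the groups used here. HEK293 libraries were made with another rRNA depletion kit and on another sequencer than mES libraries, so cell line and library preparation cannot be told apart. There was 1 file for each cell line, compartment and probing state, so no difference below has a replicate check. The intervals cover counting of transcripts within 1 file, and they are too narrow where transcripts share a gene or sequence.

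RNA is made on chromatin, processed there and in the nucleoplasm, and exported to the cytoplasm when it is a finished messenger RNA. Small nuclear and small nucleolar RNAs act in splicing and in the modification and processing of ribosomal RNA, and they are enriched in nuclei, as are introns and incompletely processed messages. Proteins, helicases and ribosomes can change the pairing of an RNA in the cell, so probing in living cells and after refolding can give different profiles. The files give Ensembl transcript identifiers with no gene names, so the members are described by identifier, length and profile, and their kind could not be checked against known nuclear RNAs.

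Absence from the cytoplasm files was read against the lowest abundance each file lists. The abundance column has no stated unit, and no source says whether it is divided by transcript length. The lowest listed abundance was 6.90 in cytoplasm in vivo and 3.47 in cytoplasm in vitro for HEK293, and 6.23 and 8.44 for mES. Both nuclear in vivo values lay below the higher of these floors in 18 of the 216 HEK293 members and 139 of the 2215 mES members. In HEK293, 89 members had a nucleoplasm abundance under the cytoplasm in vivo floor. None of the 216 and 2215 had both nuclear values below both cytoplasm floors. In HEK293 this could not occur, since the lowest abundance listed in chromatin in vivo was 4.17, above the floor of 3.47. Whether abundance can be compared between files is not stated, so RNAs that were also cytoplasmic at a low level cannot be told apart from members.

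Just inside the rule were the members with the lowest nuclear abundance. ENST00000621318, of 3084 nt, had an abundance of 5.15 in chromatin and 4.55 in nucleoplasm in vivo, and ENSMUST00000142362, of 852 nt, had 5.33 in chromatin and 6.43 in nucleoplasm. Just outside were transcripts listed in cytoplasm in vivo close to its floor. ENST00000384756, of 126 nt, had 716 in chromatin, 4.51 in nucleoplasm and 7.10 in cytoplasm. ENSMUST00000083919, of 70 nt, had 1099 in chromatin, 82.7 in nucleoplasm and 6.88 in cytoplasm. A transcript of high chromatin abundance could thus fall outside the rule by a cytoplasm value close to the floor.

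The share of nuclear-only transcripts was highest among the shortest and the longest RNAs in both cell lines. Members under 200 nt made up 11.9% of the HEK293 transcripts of that length listed in both nuclear files in vivo, and members of 3000 nt and over made up 16.2%. It was 5.28% for 200 to under 1000 nt and 5.52% for 1000 to under 3000 nt. In mES the shares were 32.7% under 200 nt, 18.4% for 200 to under 1000 nt, 18.0% for 1000 to under 3000 nt and 43.4% for 3000 nt and over. The median length was 492 nt in HEK293 members (95% interval 353 to 666), against 551 nt in the transcripts of all 3 compartments, and 2423 nt (2264 to 2615) against 1169 nt in mES. By number, 77 HEK293 members were under 200 nt, 63 had 200 to under 1000 nt, 34 had 1000 to under 3000 nt and 42 had 3000 nt and over. In mES the counts were 259, 547, 470 and 939.

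**Figure D1:**
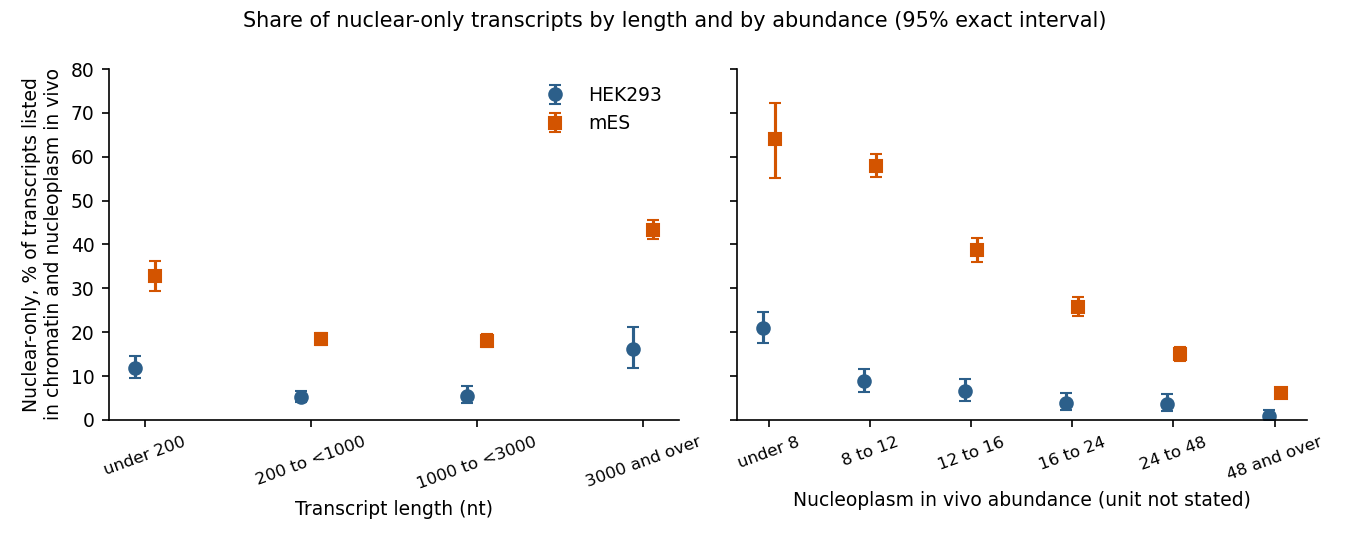
The share of transcripts listed in chromatin and nucleoplasm in vivo that were nuclear-only (%, with 95% exact interval) is plotted by transcript length in nt (left) and by nucleoplasm in vivo abundance (right) for HEK293 and mES. The share is highest in the shortest and the longest class and falls with abundance, from 64.1% under 8 to 6.21% at 48 and over in mES.

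Members were also low in abundance, which the listing rule itself favours. The share of nuclear-only transcripts was 21.0% under a nucleoplasm abundance of 8 and 0.935% at 48 and over in HEK293, and 64.1% and 6.21% in mES. The median nucleoplasm abundance in vivo was 7.96 in HEK293 members, against 19.1 in transcripts of all 3 compartments, and 13.7 against 29.0 in mES. In chromatin the medians were 13.9 against 15.4 in HEK293 and 9.10 against 13.8 in mES. Because listing sets these levels, they describe the members and support nothing further.

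The 2 members most abundant in chromatin in vivo were short in each cell line. They were picked by their chromatin value, so a high value there was built in. In mES, ENSMUST00000198150, of 67 nt, had an abundance of 7885 in chromatin in vivo, 7824 in chromatin in vitro, 124 in nucleoplasm in vivo and 132 in nucleoplasm in vitro. ENSMUST00000083346, of 76 nt, had 4380, 3829, 100.4 and 103 in the same 4 files. In these 2 RNAs the chromatin value was the higher in vivo and in vitro alike. In HEK293, ENST00000629259, of 129 nt, had 1527 in chromatin in vivo, 1277 in chromatin in vitro, 12.6 in nucleoplasm in vivo and 12.7 in nucleoplasm in vitro. ENST00000365444, of 73 nt, had 1290, 943, 24.6 and 26.6.

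The members highest in nucleoplasm differed between the lines. In mES ENSMUST00000199536, of 114 nt, had 1719 in chromatin and 737 in nucleoplasm in vivo, and ENSMUST00000083162, of 164 nt, had 429 and 433. In HEK293 the highest were ENST00000512524, of 739 nt, with 40.2 in chromatin and 132 in nucleoplasm in vivo, and ENST00000399974, of 1762 nt, with 40.8 and 126. The HEK293 pair was thus longer and had the higher value in nucleoplasm.

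Of the members with an abundance of at least 10 times the higher cytoplasm floor in a nuclear file, a subset chosen after the values were seen, most were short. In HEK293 59 of 69 such members (85.5%, 95% exact interval 74.96 to 92.8) were under 200 nt, and in mES 175 of 220 (79.5%, 73.6 to 84.7). Chromatin passed this limit in 67 of the 69 and in 217 of the 220, and nucleoplasm in 2 and 60. Other transcripts were not held to this limit, so short length at this level is not shown to be particular to members.

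The balance of chromatin over nucleoplasm lay further towards chromatin in members than in transcripts of all 3 compartments of the same length class. It is built from the in vivo levels that listing sets, and the groups were not matched in abundance. The ratio thus describes the members and supports nothing further. The median log2 ratio of abundance, with 1 added to each value, was 4.52 in HEK293 members under 200 nt (95% interval 4.18 to 4.85), against 3.15 (2.60 to 3.39) in the comparison transcripts. In mES it was 2.51 (1.91 to 2.76) against 1.12 (1.04 to 1.17). For 200 to under 1000 nt it was 0.51 against -0.77 in HEK293 and -0.42 against -1.10 in mES. For 1000 to under 3000 nt it was -0.12 against -0.70 and -0.50 against -1.02. At 3000 nt and over it was -0.55 against -0.78 in mES, and -0.05 against -0.18 in HEK293, where the intervals overlapped.

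**Figure D2:**
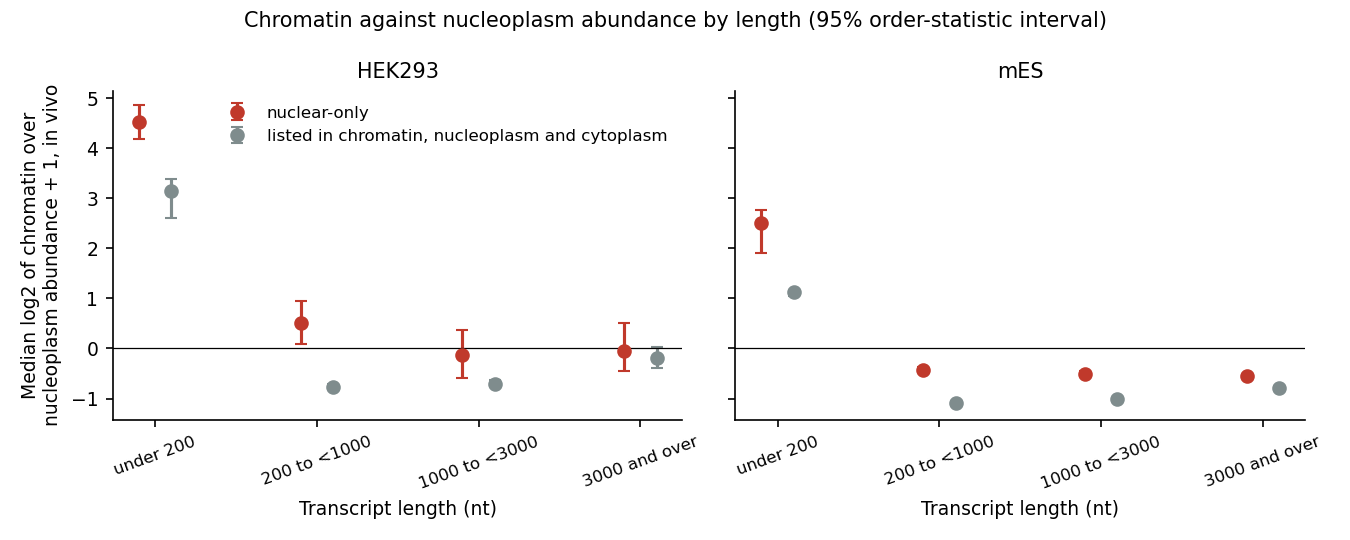
The median log2 ratio of chromatin over nucleoplasm abundance in vivo, with 1 added to each value, is plotted by transcript length in nt for nuclear-only transcripts (red, left of each pair) and for transcripts listed in chromatin, nucleoplasm and cytoplasm (grey), with 95% order-statistic intervals. Red lies above grey in each length class of both cell lines, with overlapping intervals only at 3000 nt and over in HEK293. Listing sets these abundances, and the groups were not matched in abundance.

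The in vitro files, whose abundance took no part in the choice of the nuclear members, gave the same order. Their RNA came from the same kind of fractions, so they are not an independent check. Only transcripts listed in both in vitro nuclear files entered, which were 145 of 216 HEK293 members and 600 of 2215 mES members. The groups were not matched in abundance here. Under 200 nt the median log2 ratio in vitro was 3.91 against 2.60 in HEK293 and 2.38 against 1.30 in mES. For 200 to under 1000 nt it was 0.87 against -1.52 in HEK293 and -0.09 against -1.29 in mES. For 1000 to under 3000 nt it was 0.30 against -1.24 in HEK293, where the 12 members had an interval of -1.52 to 1.82, and 0.0046 against -1.28 in mES. At 3000 nt and over it was 0.098 against -0.68 in HEK293, with overlapping intervals, and -0.65 against -1.15 in mES. Chromatin had the higher in vitro abundance in 26 of 37 HEK293 members of 200 to under 1000 nt (70.3%, 95% exact interval 53.0 to 84.1), against 109 of 545 comparison transcripts, where 61.4% of all transcripts of this length listed in both files did, a value within the members' interval. In mES it was higher in 65 of 142 such members (45.8%, 37.4 to 54.3), against 17.0% of 635, with 29.4% of all transcripts.

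The nucleoplasm in vitro files listed a smaller share of members than of comparison transcripts, and the chromatin in vitro files a like share. Chromatin in vitro listed 146 of 216 HEK293 members (67.6%) and 67.3% of the comparison transcripts, and in mES 615 of 2215 (27.8%) and 28.9%. Nucleoplasm in vitro listed 212 HEK293 members (98.1%) against 99.9%, and 1877 mES members (84.7%) against 94.7%. All 4 nuclear files held 145 HEK293 and 600 mES members, and 3 HEK293 and 323 mES members were in neither in vitro nuclear file.

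For structure, members and comparison transcripts were held to 1 range, the members' 5th to 95th percentile in length, chromatin abundance and nucleoplasm abundance. This left 155 members and 1256 comparison transcripts in HEK293 and 1738 and 4286 in mES. The nucleoplasm medians within it still differed, at 7.90 against 14.1 in HEK293 and 13.5 against 21.7 in mES. The share of nucleotides given a score went different ways by file and by range. The median scored share of a transcript in nucleoplasm in vivo was 28.6% in HEK293 members (95% interval 17.4 to 40.6), against 68.9%, and 53.1% (50.9 to 55.3) in mES members, against 63.2%. In chromatin in vivo the median was 11.4% against 0.0810% in HEK293, and 0 in both groups in mES. With both groups held to the 25th to 75th percentile, the mES nucleoplasm share was 56.8% in members against 50% in comparison transcripts. In mES classes of length and abundance, set after the values were seen, with at least 20 transcripts in each group, it was higher in members in 13 of 15, lower in 1 and equal in 1.

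Fewer members than comparison transcripts had enough scored nucleotides to be compared in structure. Over all members, 40.7% in HEK293 and 84.1% in mES had at least 100 scored nucleotides in nucleoplasm in vivo, against 67.8% and 90.9% of the comparison transcripts. The scored positions in vivo and in vitro were the same in 100% of the 170 HEK293 and 1851 mES members with scores in both nucleoplasm files, and in 605 of 605 mES members in chromatin. In HEK293 chromatin they were the same in 78 of 131 (59.5%). Mean scores were compared over the nucleotides scored in both files, with at least 100 of them.

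In nucleoplasm, fewer members than comparison transcripts were more reactive in living cells than after refolding. In HEK293 the mean score was higher in vivo in 15 of 62 members, or 24.2% (95% exact interval 14.2 to 36.7), against 47.2% (44.0 to 50.4) of 947 comparison transcripts, where 37.6% of all transcripts compared were. In mES it was higher in 702 of 1413 members, or 49.7% (47.0 to 52.3), against 73.0% (71.6 to 74.4) of 3911, with 64.7% of all transcripts. The median mean score of HEK293 members was 0.216 in vivo and 0.239 in vitro, against 0.220 and 0.221 in the comparison transcripts. In mES it was 0.182 in vivo and 0.183 in vitro, against 0.197 and 0.182. The members' in vitro medians in mES thus stood close to those of the comparison transcripts, and the in vivo median was lower.

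Both HEK293 groups were then held to the 25th to 75th percentile. The nucleoplasm share higher in vivo was 41.7% of 12 members (95% exact interval 15.2 to 72.3), against 50% of comparison transcripts. This interval holds both the 24.2% of the wider range and the 50%, so 12 members cannot settle the order. Of the transcripts listed in cytoplasm in vitro but not in vivo, 29.0% (24.8 to 33.4) of 445 were higher in vivo in HEK293 nucleoplasm. They were not held to the range, and the value lies within the members' interval of 14.2 to 36.7.

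In chromatin the share of members higher in vivo was near that of all transcripts compared in HEK293 and above it in mES. In HEK293 it was 37.9% of 29 members (20.7 to 57.7), against 42.6% of 197 comparison transcripts, with 38.1% of all transcripts. In mES it was 72.9% of 314 members (67.7 to 77.8), against 62.0% of 447, with 66.7% of all transcripts. The median difference in vivo minus in vitro was -0.0102 in HEK293 members, against -0.00942, and 0.0295 in mES members, against 0.0279. Over the members' full range of length and abundance the mES share was 71.9% of 363 members, against 71.8% of comparison transcripts. The mES difference between the groups thus depended on the range. In HEK293 the full range gave 37.8% of 45 members, against 53.6%. Of the 305 mES members within the range compared in both compartments, 161 were higher in vivo in chromatin only, 16 in nucleoplasm only, 67 in both and 61 in neither. Of 439 comparison transcripts within the range the same counts were 129, 86, 147 and 77, and of all 1633 transcripts compared they were 584, 177, 572 and 300. In HEK293 6 of 19 members were higher in vivo in chromatin only, 3 in nucleoplasm only, 2 in both and 8 in neither. Of 184 comparison transcripts the counts were 46, 50, 34 and 54, and of all 617 they were 179, 93, 128 and 217.

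**Figure D3:**
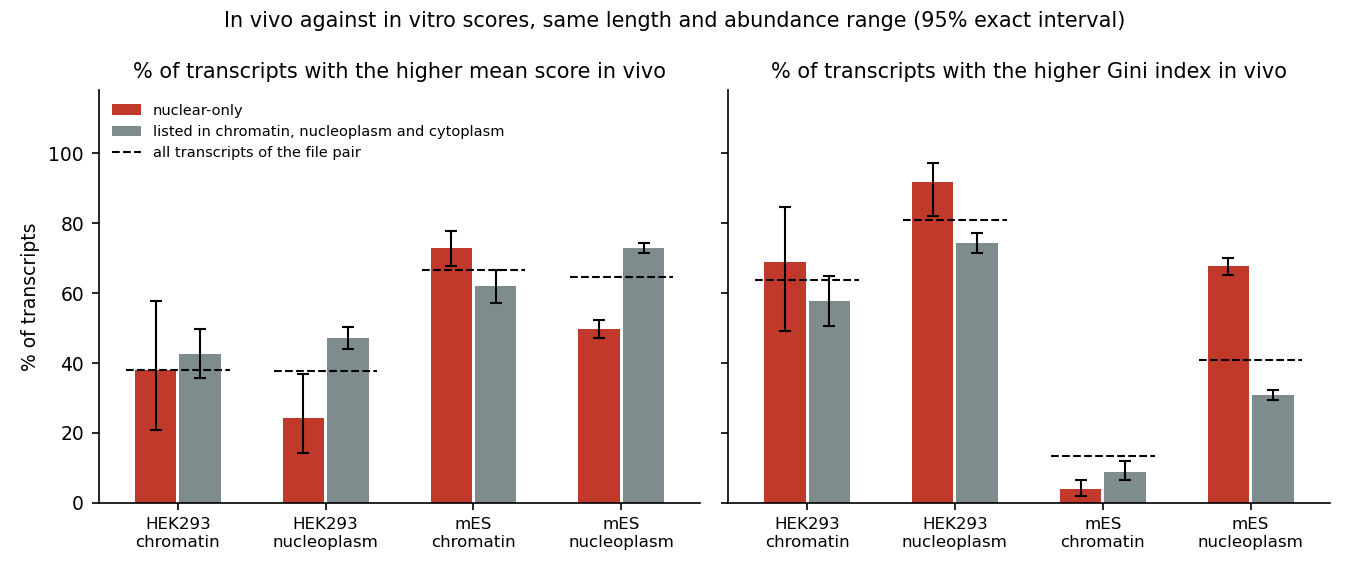
The percentage of transcripts with the higher mean score in vivo (left) and with the higher Gini index in vivo (right) is shown for nuclear-only transcripts (red) and for transcripts of all 3 compartments in the same length and abundance range (grey), with 95% exact intervals and, as dashed lines, all transcripts of the file pair. In nucleoplasm red lies below grey on the left and above grey on the right in both cell lines.

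The measure of reactivity mattered for this comparison. With scores turned into ranks within each file, 51.6% of HEK293 members were higher in vivo in nucleoplasm, against 77.8% (all transcripts 65.1%), and 31.0% of mES members, against 69.6% (all transcripts 59.3%). Over nucleotides above 0 in both files the shares were 30.2% against 56.6% in HEK293 (all transcripts 51.4%). In mES they were 71.2% against 66.3% (all transcripts 65.4%), so the members were then not the lower group. In mES chromatin ranks gave 49.0% of members against 51.9% (all transcripts 45.4%), and nucleotides above 0 gave 52.1% against 46.6% (all transcripts 52.0%). In HEK293 chromatin ranks gave 37.9% against 48.2% (all transcripts 40.5%). The share of scored nucleotides at 0 moved with these results. Its median in mES nucleoplasm was 45.1% in vivo and 41.0% in vitro in members, against 35.2% and 39.3%, and in HEK293 31.5% and 17.0%, against 28.4% and 19.5%. Its part in the difference between the groups was not tested beyond these counts.

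Length and abundance were then split together in mES, in classes set after the values were seen and kept where each group had at least 20 transcripts. The members' share higher in vivo in nucleoplasm was below that of the comparison transcripts in 12 of 12 such classes, by 12.6 to 43.3 percentage points. By ranks it was also below in 12 of 12, and over nucleotides above 0 in 7 of 12. The median share of nucleotides at 0 was higher in members in 12 of 12 classes in vivo, by 0.506 to 10.7 percentage points. In vitro it was lower in members in 12 of 12, by 0.183 to 4.43 points, unlike the medians without this split. The share of members higher in vivo fell as abundance rose. For 200 to under 1000 nt it was 59.1%, 51.8%, 41.2% and 23.5% in the abundance classes 8 to 12, 12 to 16, 16 to 24 and 24 to 48. For 3000 nt and over it was 61.7%, 49.8%, 38.5% and 35.0%. The comparison transcripts had 79.4% to 65.9% and 81.3% to 68.4% over the same classes. No HEK293 class held enough members for this joint split. By length alone and outside the range, HEK293 members were higher in vivo in 36.7% of 30 for 200 to under 1000 nt, against 53.7%. For 1000 to under 3000 nt it was 26.1% of 23, against 36.3%. At 3000 nt and over it was 6.06% of 33 (0.743 to 20.2), against 9.76% of 82 (4.31 to 18.3). The intervals overlapped in each of these length classes, so the HEK293 gap without this split may partly reflect length, which was not tested.

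**Figure D4:**
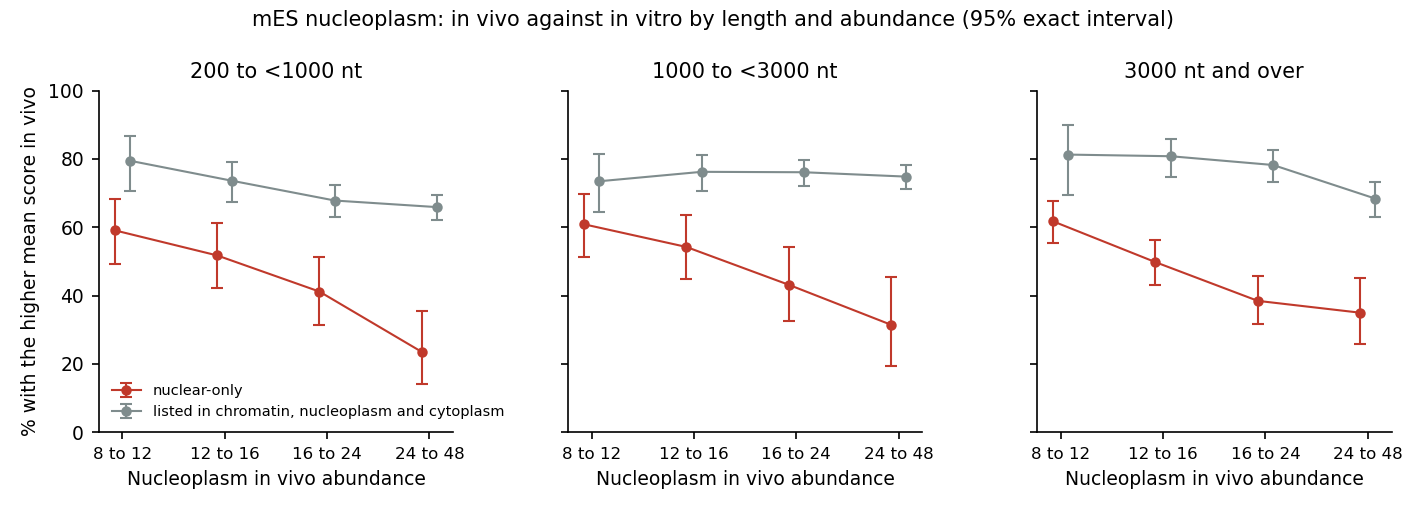
The percentage of mES transcripts with a higher mean score in vivo than in vitro in nucleoplasm is plotted against nucleoplasm in vivo abundance for 3 length classes, for nuclear-only transcripts (red) and transcripts of all 3 compartments (grey), with 95% exact intervals. Red lies below grey at each point, and falls to 23.5% at an abundance of 24 to 48 in transcripts of 200 to under 1000 nt.

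Among the mES members with at least 10 times the cytoplasm floor, 3 of the 52 with enough shared nucleotides were higher in vivo in nucleoplasm (5.77%, 95% exact interval 1.21 to 15.9), where 64.7% of all transcripts were, and the median difference was -0.0279. The median share of nucleotides at 0 in these members was 54.3% in vivo and 36.1% in vitro. In chromatin 28 of 57 were higher in vivo (49.1%, 35.6 to 62.7), with 66.7% of all transcripts. Chromatin had the higher score of the 2 nuclear compartments in 43 of 52 (82.7%), with 77.0% of all transcripts. In HEK293 3 of 9 such members were higher in vivo in nucleoplasm and 5 of 14 in chromatin, with 37.6% and 38.1% of all transcripts. No comparison transcripts were held to this limit.

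Short RNAs under 200 nt rarely reached 100 shared nucleotides, so they were also compared with at least 20, a limit chosen after the values were seen. In HEK293 nucleoplasm 12 of 50 short members (95% exact interval 13.1% to 38.2%) were higher in vivo, against 45.4% of 474 comparison transcripts, with 42.6% of all short transcripts compared. In HEK293 chromatin 37.5% of 64 were, against 42.5% of 435 (all short transcripts 44.9%). In mES the shares were 31.5% of 219 against 31.0% of 510 in nucleoplasm (all short transcripts 31.4%), and 41.9% of 234 against 52.4% of 481 in chromatin (all short transcripts 45.5%). In mES nucleoplasm the intervals of short members (25.4 to 38.1) and short comparison transcripts (27.0 to 35.2) thus overlapped. Their profiles were less alike in vivo and in vitro: the median Pearson r along a transcript was 0.451 against 0.614 in mES nucleoplasm and 0.537 against 0.727 in chromatin, and 0.485 against 0.731 and 0.553 against 0.679 in HEK293.

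The Gini index measures how unevenly reactivity is spread along a transcript: 0 is even, and values near 1 mean that few nucleotides carry nearly all of it. Over all scored nucleotides, members had the more uneven profile in nucleoplasm in vivo more often than comparison transcripts, which in mES did not hold over nucleotides above 0 alone. In HEK293 the Gini index was higher in vivo than in vitro in 91.9% of members (82.2 to 97.3), against 74.4%, with 80.9% of all transcripts. In mES it was higher in 67.7% (65.2 to 70.2), against 30.7%, with 41.0% of all transcripts. The median index of mES members was 0.702 in vivo and 0.688 in vitro, against 0.672 and 0.688, so within this range the medians differed in vivo only. In HEK293 it was 0.643 and 0.565, against 0.626 and 0.596.

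Chromatin profiles differed between the cell lines. In mES the Gini index was higher in vivo in 3.82% of members (1.99 to 6.58), against 8.95%, with 13.3% of all transcripts, and the median was 0.585 in vivo and 0.697 in vitro. In HEK293 it was higher in vivo in 69.0% (49.2 to 84.7), against 57.9%, with 63.9% of all transcripts, and the median was 0.714 in vivo and 0.643 in vitro. The share of nucleotides at 0 moved the same way: it was 19.7% in vivo and 42.1% in vitro in mES members, and 33.8% and 26.6% in HEK293 members. Over nucleotides above 0 the Gini index in mES nucleoplasm was higher in vivo in 26.5% of members, against 45.04% of comparison transcripts, so members were then the lower group. In HEK293 nucleoplasm it was then 60.4% against 45.1%, and in HEK293 chromatin 30.8% of 13 members against 34.6%.

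Along each transcript, in vivo and in vitro scores of members were less alike in nucleoplasm, which in HEK293 did not hold in each length class. The median r was 0.616 (95% interval 0.549 to 0.654) against 0.680 in HEK293 and 0.474 (0.466 to 0.480) against 0.561 in mES, and it was lower in members in 12 of 12 mES classes of length and abundance. In HEK293 by length alone it was 0.683 against 0.716 for 200 to under 1000 nt and 0.651 against 0.654 for 1000 to under 3000 nt. At 3000 nt and over members had the higher median r, at 0.587 against 0.556. In chromatin it was 0.554 against 0.519 in HEK293 and 0.515 against 0.509 in mES. Over the members' full range of length and abundance the order in chromatin turned. The median r was then 0.556 against 0.584 in HEK293 and 0.518 against 0.539 in mES. These r values are computed across nucleotides that share a library and a depth, and members had the lower median nucleoplasm abundance.

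Between the nuclear compartments, chromatin scores were higher than nucleoplasm scores in vivo in most mES transcripts, members included. They were higher in 397 of 500 (79.4%, 95% exact interval 75.6 to 82.9), against 69.2% of 769 comparison transcripts, with 77.0% of all transcripts, which lies within the members' interval, and the median difference was 0.0349 against 0.0267. Over the members' full range of length and abundance the share higher in chromatin was 78.1% of 593 mES members, against 77.4%. The share was above that of the comparison transcripts in 8 of 8 classes of length and abundance, at 65.4% to 92.5% against 53.3% to 81.1%. In HEK293 it was 9 of 15 members (32.3% to 83.7%), against 44.9% of 167, with 50.4% of all transcripts. By ranks chromatin was the higher in 72.4% of mES members, against 56.3% (all transcripts 58.3%), and in 15 of 15 HEK293 members, against 62.3% (all transcripts 72.4%). Over nucleotides above 0 it was the higher in 58.6% of 353 mES members, against 63.4% (all transcripts 71.5%), so members were then the lower group. The median r between the compartments was 0.578 against 0.668 in mES and 0.634 against 0.691 in HEK293.

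Single members ranged from well below to well above their refolded level in living cells. In HEK293 nucleoplasm ENST00000247461 averaged 0.0698 in vivo against 0.216 in vitro across 1638 nucleotides, and ENST00000366971 had 0.0877 and 0.230 over 1289. At the other end ENST00000571346 averaged 0.303 in vivo against 0.176 in vitro across 237 nucleotides, and ENST00000584798 had 0.247 and 0.172 over 201. The lower pair was longer, at 4260 and 5939 nt, than the upper pair, at 865 and 1440 nt. In mES nucleoplasm ENSMUST00000157648, of 144 nt, averaged 0.140 in vivo against 0.269 in vitro across 108 nucleotides, and ENSMUST00000172527 had 0.0856 and 0.193 over 227. ENSMUST00000202151 had 0.353 and 0.0893 over 224 nucleotides and ENSMUST00000136891 had 0.384 and 0.152 over 166.

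In mES chromatin the largest gain was in ENSMUST00000143178, with 0.339 in vivo against 0.130 in vitro across 2233 nucleotides, followed by ENSMUST00000038377 with 0.320 and 0.145 over 1126. The lowest were ENSMUST00000149002, with 0.0592 and 0.182 over 183 nucleotides, and ENSMUST00000152129, with 0.0713 and 0.178 over 190. ENSMUST00000143178 also had one of the 2 widest gaps of chromatin over nucleoplasm, at 0.362 in chromatin and 0.176 in nucleoplasm in vivo over 2078 nucleotides. In HEK293 chromatin ENST00000564014 had 0.243 in vivo and 0.180 in vitro and ENST00000477189 had 0.249 and 0.189. ENST00000480615 had 0.0134 and 0.203 and ENST00000623673 had 0.0441 and 0.226, each over at most 130 nucleotides.

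Between the compartments in vivo, the widest gap in favour of chromatin in mES was that of ENSMUST00000098334, at 0.387 in chromatin and 0.168 in nucleoplasm over 420 nucleotides. ENSMUST00000202151 had 0.248 in chromatin and 0.461 in nucleoplasm over 163, and ENSMUST00000176296 had 0.173 and 0.366 over 189. In HEK293 ENST00000610481, of 353 nt, had 0.269 and 0.157 over 317 nucleotides, and ENST00000617791 had 0.236 and 0.171 over 341. ENST00000300648, of 8675 nt, had 0.149 and 0.300 over 1562, and ENST00000594728 had 0.132 and 0.222 over 131.

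In vivo reactivity varied with position along long HEK293 members. Each of the 50 members of at least 1000 nt within the range was cut into 10 equal segments, and a segment's median was taken over the members with at least 20 scored nucleotides in it. These numbered 21, 19 and 25 in the 3 segments nearest the 5′ end and 33, 32 and 35 in the 3 nearest the 3′ end, so the medians rest on different members. The median nucleoplasm score in vivo was 0.289, 0.322 and 0.273 in the 3 segments nearest the 5′ end and 0.179, 0.159 and 0.126 in the 3 nearest the 3′ end. In vitro it lay between 0.221 and 0.261 in each of the 10. The in vivo medians were thus above the in vitro medians near the 5′ end and below them near the 3′ end. The comparison transcripts had 0.264 in the first segment and 0.132 in the last in vivo, so the slope was not particular to members. In mES members the in vivo medians ran from 0.190 in the first segment to 0.178 in the last, and the in vitro medians from 0.212 to 0.143. The slope there was the steeper in vitro, over 700 to 984 members a segment. The mES comparison transcripts ran from 0.198 to 0.192 in vivo and from 0.220 to 0.133 in vitro. A steeper slope in vitro was thus not particular to members either. The mean scored share was lowest in the first segment, at 23.7% in HEK293 members and 32.4% in mES members.

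The HEK293 members with the most scored nucleotides had this slope along their own profiles. ENST00000225719, of 9394 nt, averaged 0.208 in vivo against 0.283 in vitro in nucleoplasm across 8034 nucleotides. In 200-nt bins it was higher in vivo in 16 of the 20 bins nearer the 5′ end and in 0 of the 20 nearer the 3′ end. Bin 401 to 600 had 0.538 in vivo and 0.260 in vitro, and bin 5801 to 6000 had 0.0311 and 0.304. ENST00000256646, of 11389 nt, averaged 0.155 in vivo against 0.251 in vitro across 7730, and was higher in vivo in 11 of 12 bins nearer the 5′ end and 2 of 27 nearer the 3′ end. In both the in vitro profile stayed level while the in vivo profile dropped towards 0.

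The mES members with the most scored nucleotides had no such drop. ENSMUST00000018851, of 14342 nt, was higher in vivo in 49 of 52 chromatin bins, with means of 0.251 in vivo against 0.190 in vitro across 10234 nucleotides. In nucleoplasm it was higher in vivo in 33 of 72 bins, with 0.205 and 0.214 over 14306. ENSMUST00000015791, of 11388 nt, was higher in vivo in 38 of 41 chromatin bins and 18 of 57 nucleoplasm bins. In these 2 transcripts chromatin was the more reactive in living cells and nucleoplasm was not.

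**Figure D5:**
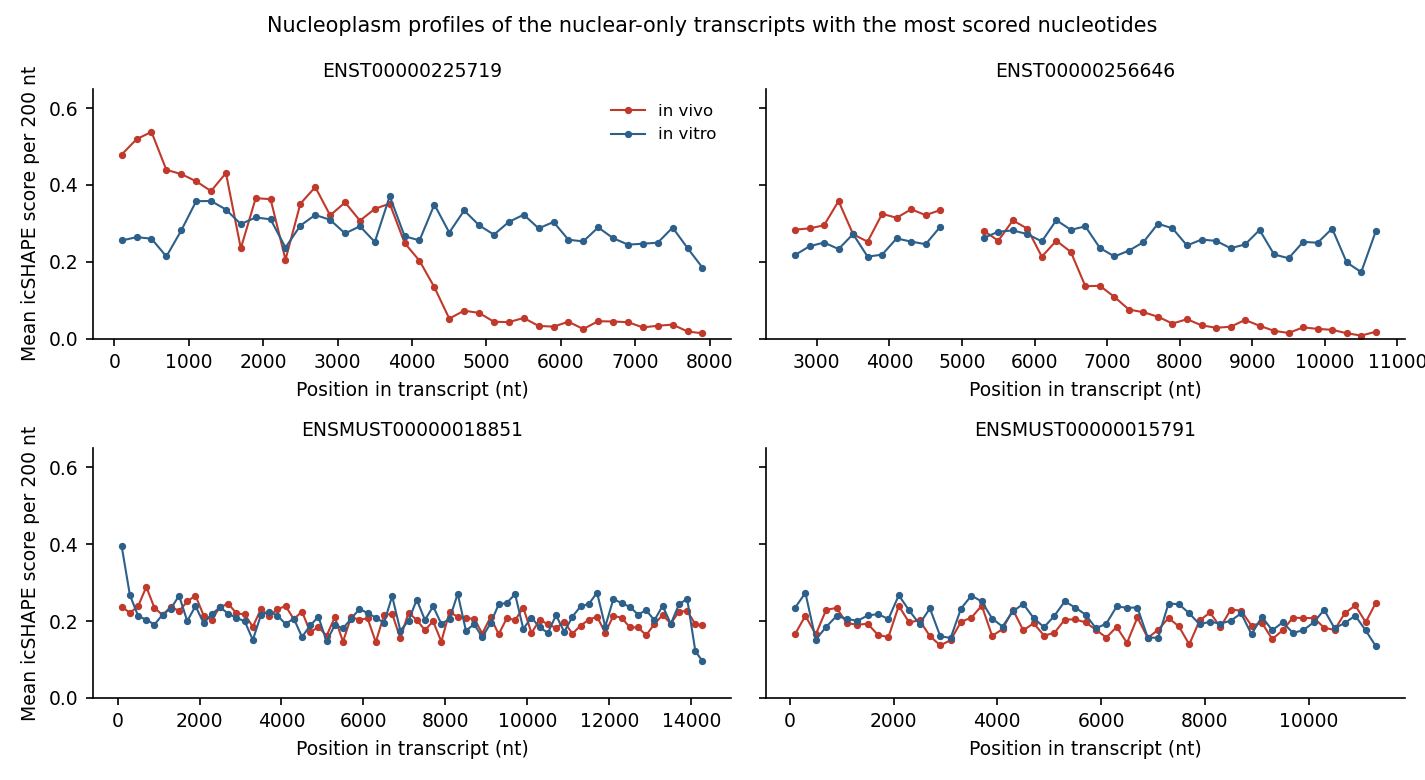
The mean icSHAPE score per 200 nt in nucleoplasm is plotted along the nuclear-only transcripts with the most scored nucleotides in HEK293 (top) and mES (bottom), in vivo in red and in vitro in blue; gaps are bins with too few scored nucleotides. In the HEK293 transcripts the in vivo line falls from above the in vitro line to near 0, and in the mES transcripts both lines run near 0.2 over most of the length.

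A period of 3 nt, the length of a codon, has been described in the reactivity of coding regions. It was taken as present where the power at that period was over 5 times the mean of 24 neighbouring frequencies, in transcripts with at least 500 scored nucleotides. In nucleoplasm in vivo 17 of 34 HEK293 members had it (95% exact interval 32.4% to 67.6%), against 35.4% of 542 comparison transcripts, with 32.2% of all transcripts. In mES 240 of 1129 members had it (21.3%, 18.9 to 23.8), against 31.0% of 2765, with 31.7% of all transcripts. Within classes of length and abundance the mES members had the higher share in 7 of 10 and the lower in 3, with differences of 1.59 to 13.5 percentage points in size. In transcripts of 3000 nt and over it was 12.2%, 20.9%, 34.9% and 48% of members by rising abundance, against 8.11%, 17.7%, 30.1% and 46.4%.

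In vitro the period was present in nucleoplasm in 32.4% of HEK293 members, against 23.1% (all transcripts 13.5%), and in 16.4% of mES members, against 19.8% (all transcripts 21.4%). In chromatin in vivo it was present in 14.4% of 222 mES members, against 15.0% (all transcripts 19.6%), and in 2 of 7 HEK293 members, against 13.2% (all transcripts 14.2%).

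No source used here says how reads were assigned between isoforms of a gene, so a listing belongs to a transcript and not to a gene, and another isoform of the same gene may have been listed in cytoplasm.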

How the data were processed

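Chromatin, nucleoplasm and cytoplasm RNA of HEK293 and V6.5 mES cells was probed by icSHAPE in vivo and in vitro, per the labels' protocols. The submitters' processing notes name Bowtie2, UMI-tools, hg38 and mm10, without versions or roles. Each deposited file lists, per transcript, its length, an abundance value used here as a signal whose unit and normalization the authors do not state, and a score per nucleotide, deposited as a fraction from 0 to 1. The authors left nucleotides unscored where no value is given, always the first 6 and last 30. Read depth behind a value is unknown.

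Nuclear-only transcripts were chosen with earlier results of these data known, and so were the measures and lists. With 1 file per group no test was made. Shares have exact (Clopper-Pearson) and medians order-statistic 95% intervals, computed with Python 3.11.15, numpy 2.4.6, pandas 2.3.3 and scipy 1.17.1. Named transcripts were, per comparison, the 2 with the highest and the 2 with the lowest difference, the 2 most abundant and the 2 with the most scored nucleotides. Planned gene lists were not used, since identifiers had no gene names here. The period and score measures were tested on simulated data. The irCLIP samples were not used here.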

Additional observations from a re-analysis of the deposited data

Results flagged for a closer look

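Chromatin scores of nuclear-only transcripts lay on opposite sides of 50% in the 2 cell lines, and this difference was not tested. The mean score was higher in vivo in 72.9% of mES members and in 37.9% of HEK293 members, whose interval of 20.7 to 57.7 holds 50%. By ranks it was 49.0% in mES and 37.9% in HEK293, and 49.1% in the mES members with at least 10 times the cytoplasm floor, so the sides were then no longer opposite. The Gini index, which is high where few nucleotides carry the reactivity, was higher in vivo in 3.82% of mES members and in 69.0% of HEK293 members (49.2 to 84.7), and over nucleotides above 0 in 17.0% and 30.8%. All transcripts compared differed between the lines in the same direction, at 66.7% in mES and 38.1% in HEK293 for the mean score and 13.3% and 63.9% for the Gini index. Cell line, rRNA depletion kit and sequencer cannot be told apart here.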

How the results depend on the processing

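No paired analysis was possible because each group had 1 file. Of 178 alternative values for 32 results, 135 stayed within their interval or threshold, 39 moved, and 4 shares whose interval excluded 50% went to the other side of it. Another 5 shares crossed 50% from an interval that held it. The cause of these changes was not tested. These counts judge the members' own value, and a change against the comparison transcripts is not counted. Over the full range, mES chromatin counted as unchanged at 71.9%, though the comparison transcripts then had 71.8%. Keeping 1 of the transcripts with an identical pattern of zeros over 60 nt left the same 216 HEK293 members, whose values could not change. In mES it left 2209 of 2215. With absence from cytoplasm in vivo alone, HEK293 had 725 members, of median length 1279 nt, chromatin abundance 9.21 and a scored share of 0 in chromatin and 60.4% in nucleoplasm. Listing in all 4 nuclear files gave HEK293 a median length of 180 nt and chromatin abundance of 43.4. It left 600 mES members, of 552 nt, with abundance 33.7 in chromatin and 25.7 in nucleoplasm. An abundance of at least 10 in both nuclear files left 53 HEK293 and 961 mES members. By ranks, the share higher in vivo was 51.6% in HEK293 nucleoplasm, 49.0% in mES chromatin and 31.0% in mES nucleoplasm, and the share higher in chromatin than in nucleoplasm was 100% in HEK293 and 72.4% in mES. Over nucleotides above 0 the share higher in vivo was 52.1% in mES chromatin and 71.2% in mES nucleoplasm, and that higher in chromatin 58.6%. The share with the higher Gini index in vivo was then 30.8% and 60.4% in HEK293 chromatin and nucleoplasm, and 17.0% and 26.5% in mES, where comparison transcripts had 45.04% in nucleoplasm. The mES median r was then 0.446 in chromatin, 0.396 in nucleoplasm and 0.514 between them. At least 200 shared nucleotides gave 79.7% higher in vivo and 0.391% with the higher Gini index in mES chromatin, and 86.9% higher in chromatin than in nucleoplasm, which was 72.8% with at least 50. The 25th to 75th percentile range gave 41.7% in HEK293 nucleoplasm, and in mES 56% in chromatin, 56.5% in nucleoplasm, 69.5% higher in chromatin and a scored share of 56.8% in nucleoplasm against 50% in comparison transcripts, so members were then the higher group. A 3-nt ratio above 3 was reached by 25.7% of mES members in chromatin and 35.4% in nucleoplasm. Members with at least 10 times the floor, added after the data were seen, gave in mES 49.1% higher in vivo in chromatin and 5.77% in nucleoplasm, and 21.1% and 98.1% for the Gini index. The unknown depth limits what absence from a file shows.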
